A study of Mus musculus with 4 samples.

Results

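The major histocompatibility complex (MHC) class I presentation pathway and the immunoproteasome were examined in mouse articular cartilage through 10 genes, picked by name and matched by symbol, all of which were found among the 24532 genes of the expression table. They were the class I heavy chains H2-K1 and H2-D1, the light chain B2m, the peptide transporter subunits Tap1 and Tap2, the loading factor Tapbp, the immunoproteasome subunits Psmb8, Psmb9 and Psmb10, and the regulator Nlrc5. All 10 genes were above 0 in each library, and 9 of them reached 1 FPKM in each. Expression was available for 4 libraries of wild type C57BL/6 mice, one each of sham and injured cartilage at a young and an adult age. Young mice were 3 weeks of age. Adult mice were 10 weeks of age in the study's methods, whereas the sample labels give 12 weeks in the titles and 14 weeks in the age field. Injured tissue was collected 3 days after full-thickness cartilage injury (FTCI) made with a needle in the patellar groove of male mice, although the labels call the surgery DMM (destabilization of the medial meniscus), and the adult sham sample carries a label of days 3 to 14. RNA was pooled from 10 mice for an injured and from 5 mice for a sham library, so each group is 1 library, no value below has a replicate error, and no p-value is given.

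Class I molecules carry peptides of cytosolic and nuclear proteins to the cell surface, where CD8 T cells and natural killer cells read them. The proteasome cuts the proteins, TAP moves the peptides into the endoplasmic reticulum, tapasin holds the transporter and the empty class I molecule together during loading, and β2-microglobulin stabilizes the finished complex. Interferon-γ (IFN-γ) is a classical inducer of these genes, including the 3 proteasome subunits that replace their constitutive counterparts in newly built particles. Nearly all nucleated cells express class I, leukocytes at high levels, so in whole tissue a shift in the cells present and a shift in RNA per cell cannot be told apart.

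Of the 10 genes, 7 lie on chromosome 17 between positions 33919478 and 35267497 (RefSeq, GRCm38.p6, the assembly of mm10), within the mouse H2 complex, and Psmb9, Tap1, Psmb8 and Tap2 follow each other there from 34182030 to 34216321. B2m lies on chromosome 2 (122147687 to 122153082), and Psmb10 (105935728 to 105938392) and Nlrc5 (94434335 to 94527272) on chromosome 8. RefSeq promoter windows, from 250 bases before to 50 bases after a start site, were found for 8 of the genes, and not for Tap2 and Nlrc5. They were searched on both strands for the IFN-γ activated sequence GAS (TTCNNNGAA), the interferon-stimulated response element ISRE (GAAA, any 2 bases, GAAA), a κB site (GGGG followed by ATTCCC) and the Y box (CCAAT). No matches of different motifs overlapped. The κB letters occurred in the windows of H2-K1 and H2-D1 and in 0.107% of all 32851 windows of 300 bases. H2-K1 has 2 start sites in the table, with the κB letters 111 bases before the nearer of them, and in H2-D1 they lie 171 bases before the start. Both H2-K1 windows, and the κB match in them, lie inside the RefSeq span of that gene (33996012 to 34000619, minus strand). A start at the outer end of that span was therefore not covered. The stretches of the pair are shown because the genes responded alike in young and differently in adult mice. Capitals mark the κB site and 2 Y boxes.

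H2-K1, chr17:34000334-34000468, minus strand: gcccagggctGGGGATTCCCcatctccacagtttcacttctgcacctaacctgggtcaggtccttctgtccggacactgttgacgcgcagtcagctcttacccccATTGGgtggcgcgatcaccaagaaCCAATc
H2-D1, chr17:35262913-35263047, plus strand: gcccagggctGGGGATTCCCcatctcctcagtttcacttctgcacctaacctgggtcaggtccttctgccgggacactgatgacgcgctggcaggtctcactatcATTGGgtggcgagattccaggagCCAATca

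Aligned without gaps from the same offset before the κB site, these stretches of 135 bases were identical at 111 positions (82.2%). Only exact matches were counted for each motif, so a window without a match can still hold a variant of that element. B2m held the only exact ISRE match among the 8 windows, against 3.44% of all windows, and it is shown with its Y box in capitals.

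B2m, chr2:122147538-122147657, plus strand: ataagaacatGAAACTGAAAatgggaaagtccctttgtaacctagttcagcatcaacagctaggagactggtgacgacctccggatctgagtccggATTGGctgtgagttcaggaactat

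Psmb9 and Tap1 are transcribed away from each other with 225 bases between their start sites, so the same sequence lies upstream of both. It is printed on the strand of Tap1, with the Y box that both windows share in capitals; a Y box occurred in 37.4% of all windows.

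Psmb9 to Tap1, chr17:34187331-34187555, plus strand: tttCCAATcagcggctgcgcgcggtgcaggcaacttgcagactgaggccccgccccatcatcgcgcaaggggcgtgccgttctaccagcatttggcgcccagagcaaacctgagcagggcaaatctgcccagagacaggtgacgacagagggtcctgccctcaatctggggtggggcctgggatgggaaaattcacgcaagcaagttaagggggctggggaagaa

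The GAS letters were found in Psmb8 alone among the 8 windows, 97 bases before its start, and in 8.3% of all windows. It is shown because Psmb8 had the largest log2 ratio of FPKM + 1 after injury of the 10 genes at both ages.

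Psmb8, chr17:34198073-34198131, plus strand: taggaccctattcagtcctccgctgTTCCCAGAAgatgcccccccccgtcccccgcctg

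These matches describe the sequence only, and no binding was measured.

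The authors deposited expression as FPKM, fragments scaled to transcript length and to the mapped total of the library, which allows levels of different genes to be compared per length. The FPKM of all genes summed to between 469939 and 533468 per library. Low values of single-transcript genes fell on rough steps that, if 1 step is 1 fragment, correspond to 25800000 to 30900000 fragments per library; whole fragment numbers were not recovered. The labelled chondrocyte identity was checked with 8 cartilage genes, none of which was under 1 FPKM in either sham library, with Col2a1, the main collagen of cartilage, between 3172.79 and 9349.39 FPKM over the 4 libraries. The sham libraries differed in these genes, since 4 of the 8 were called lower and 1 higher in adult sham cartilage, with Matn3, a matrix gene, at 391.77 FPKM in the young and 2.30 FPKM in the adult library. Ibsp, a gene of bone matrix, measured 368.85 FPKM in the young sham and 4136.02 FPKM in the adult sham library, where it exceeded Col2a1. Changes are given as log2 ratios of FPKM + 1, a scale that understates the change of low genes, and a gene was called at 2-fold or more, that is at a log2 ratio of 1. Over 18181 genes above 0 in 1 or more libraries, the median log2 ratio was 0.00 in the young injury comparison, 0.14 in the adult one and −0.15 between the sham libraries (adult over young). Scaling by the median of ratios, with 1 divisor per library, brought these medians to −0.01, 0.00 and 0.00, and its values are given beside a number of the results below. Over the 10891 genes of at least 1 FPKM in all 4 libraries, the medians as deposited were −0.04, 0.23 and −0.30 in the same order.

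The light and heavy chains were the most abundant of the 10 genes in all 4 libraries. B2m measured 219.0 FPKM in the young sham library, 485.0 in the young injured, 272.2 in the adult sham and 464.6 in the adult injured library. Both injured libraries were higher than both sham libraries, and the injured libraries lay closer to each other than the sham libraries did. Injury raised B2m by a log2 ratio of 1.14 in young mice, whereas the adult ratio was 0.77, and 0.43 after median-of-ratios scaling. H2-K1 (chromosome 17, 33996012 to 34000619) was at 45.8, 139.9, 97.4 and 182.9 FPKM across these libraries. H2-D1 (chromosome 17, 35263094 to 35267497) was at 53.1, 161.8, 186.1 and 237.8 FPKM. For both heavy chains the young sham library was the lowest and the adult injured library the highest, and for H2-D1 the adult sham library already exceeded the young injured one.

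In young cartilage both heavy chains rose by the same amount after injury, with log2 ratios of 1.59 for H2-K1 and 1.59 for H2-D1. In adult cartilage the ratio was 0.90 for H2-K1 and 0.35 for H2-D1, and after median-of-ratios scaling 0.57 and 0.02. The ratio of H2-D1 to H2-K1 within a library, which no scaling between libraries by 1 factor can change, was 1.16 in both young libraries, 1.91 in the adult sham and 1.3 in the adult injured library. The adult sham library stood apart from the other 3 in the balance of the heavy chains. The ratio of B2m to the sum of H2-K1 and H2-D1 was 2.21 in young sham and 1.61 in young injured cartilage, against 0.96 and 1.10 in the adult libraries. H2-K1 and H2-D1 share 11.1% and 13.8% of their 31-base transcript words with each other, and 22.8% and 26.7% with any other gene, mostly class I relatives, so a part of their fragments could be assigned to either.

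**Figure D1:**
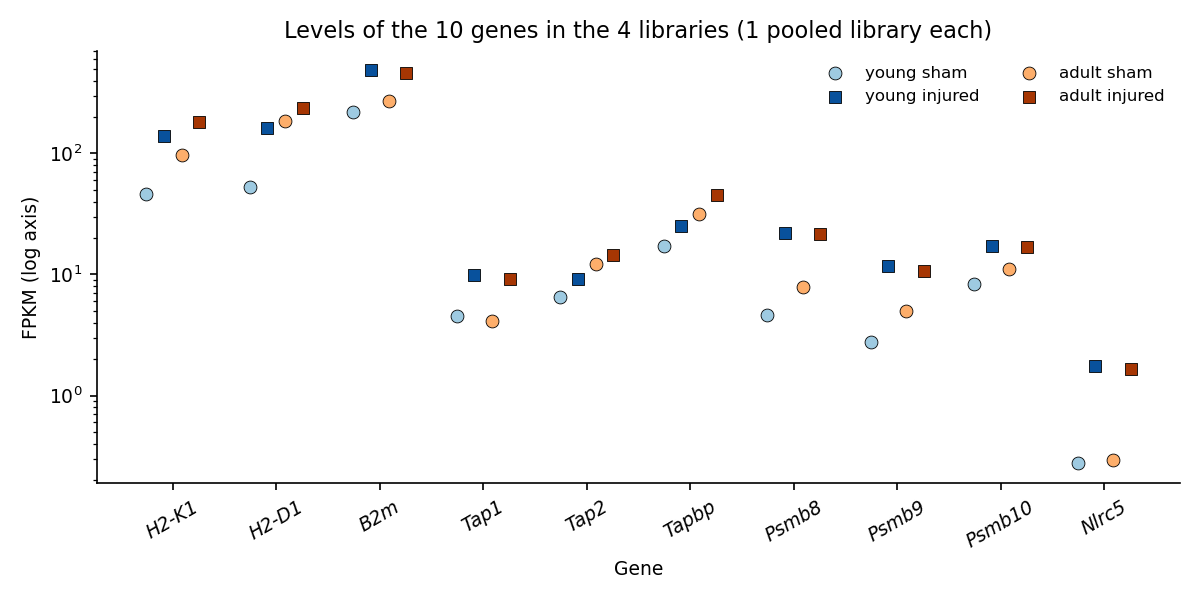
Levels of the 10 genes in FPKM on a log axis, 1 point per library, with circles for sham and squares for injured cartilage (blue young, orange adult). The injured library was above the sham library of the same age for every gene, from Nlrc5 at 0.28 FPKM in young sham to B2m at 485.0 FPKM in young injured cartilage.

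The peptide transporter subunits, which work as a heterodimer, did not follow one pattern. Tap1 (chromosome 17, 34187556 to 34197225) measured 4.55 FPKM in the young sham library, 9.83 in the young injured, 4.15 in the adult sham and 9.24 in the adult injured library. Its level separated sham from injured tissue and hardly differed by age, with log2 ratios of FPKM + 1 after injury of 0.96 and 0.99, just under the call, and plain FPKM ratios of 2.16 and 2.23. Tap2 (chromosome 17, 34204479 to 34216321) was at 6.56, 9.18, 12.2 and 14.4 FPKM. It separated young from adult tissue instead, since both adult libraries were above both young ones, and its injury ratios were 0.43 (young) and 0.23 (adult). The adult ratio of Tap2 turned to −0.09 after median-of-ratios scaling and to −0.02 after quantile normalization. The ratio of Tap1 to Tap2 within a library went from 0.69 to 1.07 with injury in young and from 0.34 to 0.64 in adult cartilage, that is, it was 1.54-fold and 1.88-fold higher after injury. Tapbp (chromosome 17, 33919478 to 33929290), which encodes tapasin, was at 17.2, 25.3, 31.5 and 45.7 FPKM, with all adult values above all young values. Its injury ratios were 0.53 (young) and 0.52 (adult), the latter 0.19 after median-of-ratios scaling.

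The 3 immunoproteasome subunits were higher in both injured libraries than in both sham libraries. Psmb8, which takes the place of Psmb5, measured 4.62 FPKM in the young sham library, 22.1 in the young injured, 7.88 in the adult sham and 21.8 in the adult injured library. It rose at both ages, by log2 ratios of FPKM + 1 of 2.04 and 1.36, and was the one gene of the 10 that was called at both ages after median-of-ratios scaling as well (2.004 and 1.05). Psmb9 (chromosome 17, 34182030 to 34187330), the counterpart of Psmb6, was at 2.79, 11.9, 5.04 and 10.7 FPKM. It rose in young mice by a log2 ratio of 1.76 and had a ratio of 0.96 in adult mice, where its plain FPKM ratio was 2.13. Psmb10, the counterpart of Psmb7, was at 8.33, 17.3, 11.2 and 16.9 FPKM, with ratios of 0.97 and 0.56. The young injured library was above the adult injured one by log2 ratios of 0.02, 0.13 and 0.03 for Psmb8, Psmb9 and Psmb10, while the adult sham library was above the young sham library by log2 ratios of 0.66, 0.67 and 0.39, or 1.04, 1.03 and 0.79 after median-of-ratios scaling. The same scaling turned the small ratios between the injured libraries to −0.09 for Psmb8 and −0.08 for Psmb10.

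Tap1 and Psmb9 share the 225 bases shown above, yet their ratios differed. In young mice the injury ratio was 0.96 for Tap1 and 1.76 for Psmb9, and in adult mice 0.99 and 0.96. Their sham libraries also differed, since Psmb9 was higher in adult than in young sham cartilage by 0.67 and Tap1 lower by a log2 ratio of −0.11, or higher by 0.25 after median-of-ratios scaling. Among the 4 neighbouring genes of this stretch of chromosome 17, the young injury ratios ranged from 0.43 for Tap2 to 2.04 for Psmb8.

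**Figure D2:**
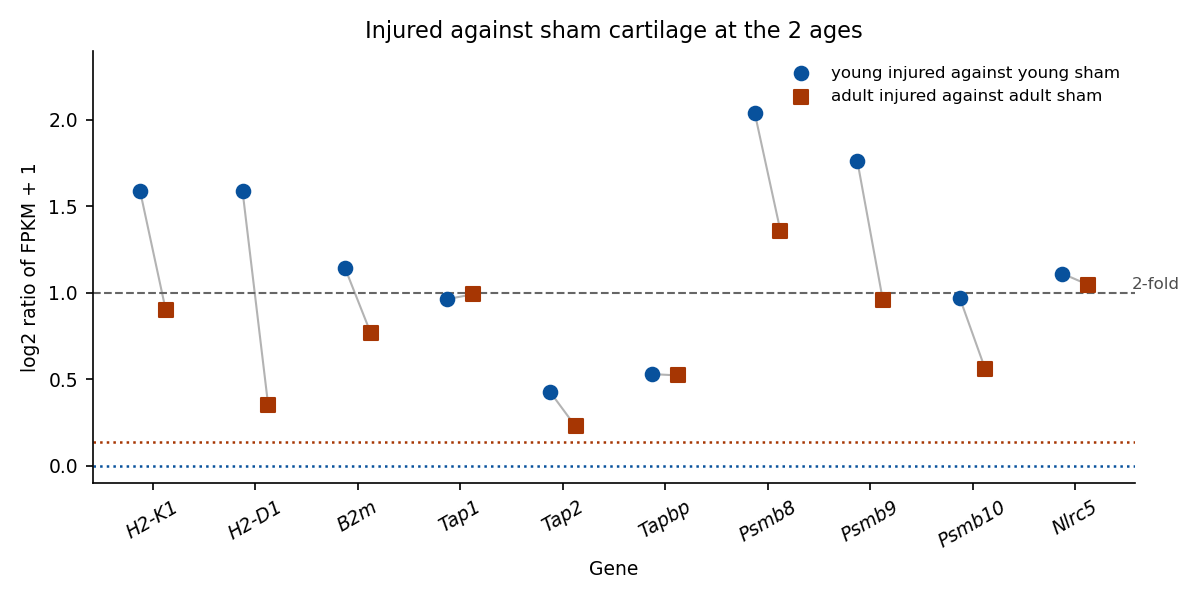
log2 ratios of FPKM + 1 between injured and sham cartilage for each gene, with circles for young and squares for adult mice, a dashed line at 2-fold, and dotted lines at the median of 18181 genes (0.00 in young, 0.14 in adult mice). All 20 points lie above these medians, and H2-D1 has the largest gap between the ages (1.59 against 0.35). Over the 10891 genes of at least 1 FPKM in all libraries the adult median was 0.229, and the adult ratio of Tap2 (0.227) was not above it.

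Nlrc5, a coactivator of class I transcription, was the lowest of the 10 genes. It measured 0.276 FPKM in the young sham library, 1.76 in the young injured, 0.293 in the adult sham and 1.67 in the adult injured library. The libraries fell into a low sham pair and a high injured pair, with the ages close together in each. Under the same assumption on steps, these values correspond to about 50, 320, 63 and 299 fragments over a transcript of 6945 bases. The plain FPKM ratio was 6.37 at the young and 5.71 at the adult age, the largest of the 10 genes, whereas the log2 ratio of FPKM + 1 was 1.11 and 1.05 because the added 1 FPKM outweighs the sham values. After median-of-ratios scaling the adult ratio was 0.95, below the call. With an added 0.1 FPKM the log2 ratios were 2.30 and 2.17, and with 5 FPKM 0.36 and 0.33.

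In young cartilage 6 of the 10 genes were at least 2-fold higher after injury, namely H2-K1, H2-D1, B2m, Psmb8, Psmb9 and Nlrc5, where 4.57% of all genes were called higher and 1.27% lower. Their median log2 ratio over all 10 was 1.13, from 0.43 to 2.04. In adult cartilage 2 of the 10 genes, Psmb8 and Nlrc5, were called higher, where 6.9% of all genes were called higher and 1.46% lower, and the median ratio was 0.84, from 0.23 to 1.36. None of the 10 was called lower at either age. On the TPM scale the adult count was 5. With median-of-ratios scaling it was 1, and the median was 0.50. Tap1, Psmb9 and H2-K1 in adult and Tap1 and Psmb10 in young mice lay within 0.10 of the call from below.

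The injury ratio was larger in young than in adult mice for 9 of the 10 genes, Tap1 being the exception, with a median difference of 0.39. Of all 18181 genes 33.7% had the larger ratio at the young age, and the median difference was −0.12. It was −0.25 over the 10891 genes of at least 1 FPKM in all libraries. The difference was 1.24 for H2-D1, 0.81 for Psmb9, 0.69 for H2-K1 and 0.68 for Psmb8, and between −0.03 and 0.41 for the other 6 genes. After median-of-ratios scaling the young ratio was the larger one for all 10 genes, with a median difference of 0.70 beside 0.00 over all genes, and on the TPM scale 7 did, with a median difference of 0.19 beside −0.31 over all genes, of which 24.1% had the larger ratio at the young age. No test of this difference is possible with 1 library per group.

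The sham libraries differed as well. Adult sham cartilage was higher than young sham cartilage for 9 of the 10 genes, with a median log2 ratio of 0.67, where the median of all genes was −0.15. H2-D1 (1.79) and H2-K1 (1.07) were called higher, where 2.66% of all genes were called higher and 10.6% lower. Median-of-ratios scaling raised the count to 6 genes and the median to 1.04. The adult sham library enters both this comparison and the adult injury comparison, so a high value in that library raises the first and lowers the second.

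The injured libraries were then compared with each other, a pair that shares no library with the sham pair. No gene of the 10 was called in either direction, where 3.09% of all genes were called higher and 1.8% lower in young injured cartilage. Once the values had been seen, the 10 genes could be divided into 4 and 6. For B2m, Tap1, Psmb8, Psmb9, Psmb10 and Nlrc5 the adult injured library differed from the young injured one by log2 ratios between −0.13 and −0.02, and by 0.09 or less either way after median-of-ratios scaling. H2-K1, H2-D1, Tap2 and Tapbp were higher in the adult injured library by 0.38, 0.55, 0.60 and 0.83, and by 0.50 to 0.94 after median-of-ratios scaling. The same 4 genes had adult to young ratios of 0.80 to 1.79 in sham cartilage, above the −0.11 to 0.67 of the other 6. On the TPM scale the 4 genes were higher in adult injured cartilage by 0.57 to 1.02 and the other 6 by 0.03 to 0.16.

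**Figure D3:**
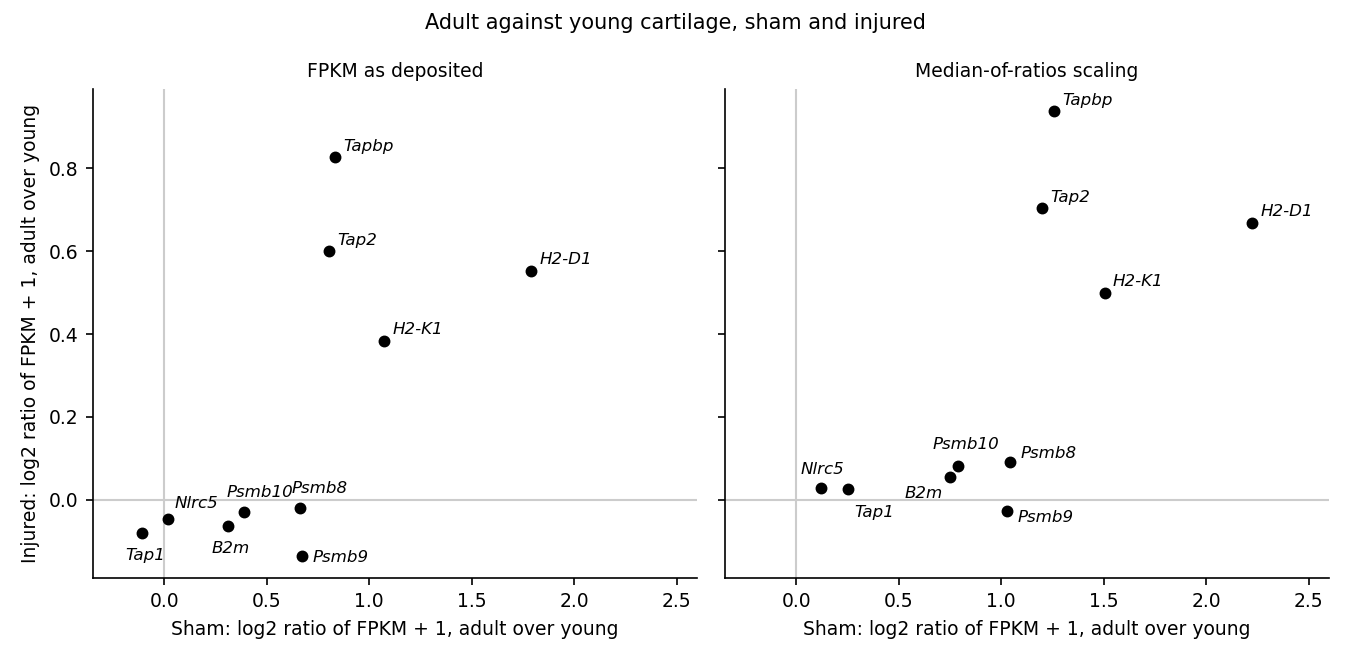
log2 ratio of FPKM + 1 of adult over young cartilage in sham (horizontal axis) and injured (vertical axis) libraries, 1 point per gene, with FPKM as deposited on the left and after median-of-ratios scaling on the right. H2-K1, H2-D1, Tap2 and Tapbp lie at 0.38 or more on the vertical axis and the other 6 genes near 0 in both panels.

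The constitutive catalytic subunits were used to follow the composition of the proteasome at the RNA level. In the order young sham, young injured, adult sham, adult injured, Psmb5 was at 66.2, 78.6, 48.7 and 70.2 FPKM, Psmb6 at 121.6, 141.8, 109.9 and 105.9 FPKM, and Psmb7 at 100.9, 123.5, 88.9 and 92.3 FPKM. None of the 3 was called in any of the 4 comparisons, with injury ratios between −0.05 and 0.52. The adult ratio of Psmb7, 0.05, was −0.28 after median-of-ratios scaling. Psmb8 amounted to 6.98% of Psmb5 in young sham tissue and 28.1% after injury, and to 16.2% and 30.97% in the adult libraries. Psmb9 amounted to 2.29%, 8.37%, 4.58% and 10.1% of Psmb6, and Psmb10 to 8.26%, 14.0%, 12.6% and 18.3% of Psmb7. In each of the 3 pairs the young sham library was the lowest and the adult injured library the highest. The ratio was 4.02-fold, 3.65-fold and 1.69-fold higher after injury in young mice, and 1.92-fold, 2.21-fold and 1.46-fold higher in adult mice. Psmb5 shares 71.7% of its 31-base words with other loci, chiefly a pseudogene, so its own level is uncertain.

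**Figure D4:**
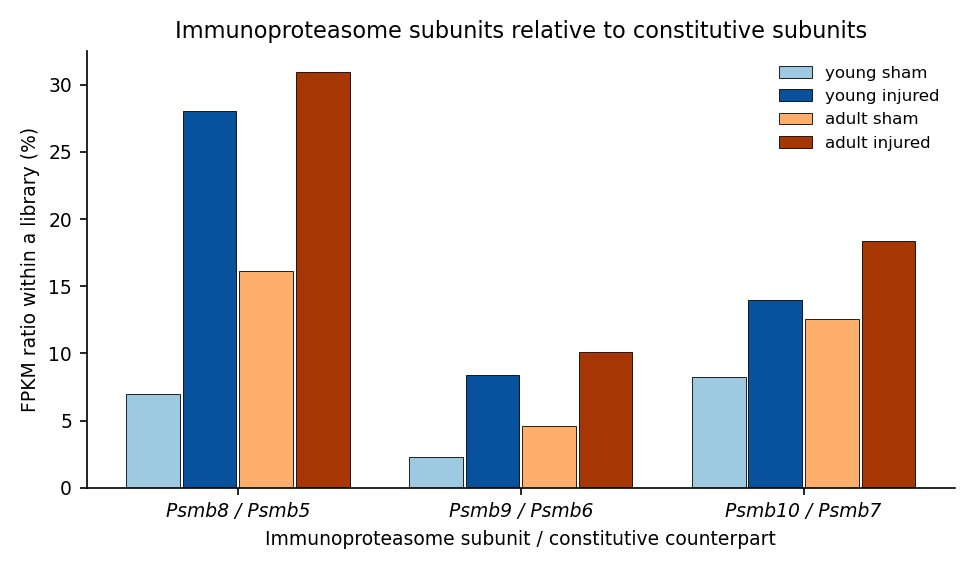
FPKM of each immunoproteasome subunit as a percentage of its constitutive counterpart, 1 bar per library. Psmb8/Psmb5 goes from 6.98% to 28.1% in young and from 16.2% to 30.97% in adult mice, and constitutive subunits exceed immunoproteasome subunits in all 4 libraries.

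The other parts of the proteasome were followed as well. None of the 11 other subunits of its 20S core was called after injury at either age, with a median log2 ratio of 0.21 at the young and 0.33 at the adult age. After median-of-ratios scaling the adult median was −0.0077, and 5 of the 11 adult ratios changed sign. In young mice they ranged from Psmb4 (0.08) to Psma7 (0.37), and in adult mice they ranged from Psmb3 (−0.27) to Psma1 (0.59). Of 9 activator and assembly genes, 1 was called, the IFN-γ inducible activator subunit Psme2, which rose by 1.08 in adult mice and had a ratio of 0.52 in young mice. After median-of-ratios scaling its adult ratio was 0.76, so that none of the 9 was called. Psme2 shares 33.5% of its words with the near copy Psme2b. Its partner Psme1 had ratios of 0.59 and 0.17, the latter −0.17 after that scaling, and the assembly chaperone gene Psmg4 the lowest ratios of the list, −0.11 and −0.62.

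The general chaperones and peptide trimming enzymes of the endoplasmic reticulum and cytosol were also followed. None of 11 such genes was called after injury at either age, with a median log2 ratio of −0.02 at the young and 0.51 at the adult age. Of all genes 4.57% were called higher in young and 6.9% in adult mice, so no call among 11 lies near those shares. In adult mice 10 of the 11 ratios were above 0, and after median-of-ratios scaling the adult median was 0.21. Erap1, which trims peptides for class I, was at 7.29, 7.41, 4.51 and 6.86 FPKM, in the order given for Psmb5. Canx, the chaperone calnexin, had ratios of −0.56 and 0.21, the latter −0.12 after median-of-ratios scaling, the tapasin relative Tapbpl 0.05 and −0.02, and Sec61b of the protein channel 0.18 and 0.84. In adult against young sham cartilage 5 of the 11 were called lower and none higher, with a median of −0.91, opposite in sign to the 0.67 of the 10 genes. After median-of-ratios scaling 1 of the 11 was called lower, and the median was −0.50.

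Of 17 other class I heavy chains and relatives, 15 were above 0 in 1 or more libraries. H2-T23, a non-classical heavy chain, was at 8.16, 26.3, 17.5 and 32.0 FPKM and had injury ratios of 1.58 and 0.83, close to those of H2-K1. It was called in young mice together with H2-T24 (1.06), and H2-Q10 (1.03) was called in adult mice, though not after median-of-ratios scaling (0.85). The medians of the 15 genes were 0.71 and 0.56. Fcgrt, the neonatal Fc receptor chain that also pairs with B2m, was at 104.9, 94.7, 194.6 and 140.3 FPKM, the highest of this list, with ratios of −0.15 and −0.47. Mr1, which presents vitamin B metabolites, had ratios of −0.18 and 0.44. In adult against young sham cartilage 4 of the 15 genes were called higher and none lower, with a median of 0.51. Of all genes 2.66% were called higher there, and after median-of-ratios scaling 7 of the 15 were. Between the injured libraries 3 of the 15 were higher in young mice, and the median of young over adult was −0.46. Several of these genes have close copies, and H2-Q6, H2-T10 and H2-T22 share 50.3% to 51.0% of their words with other genes.

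Regulators of class I genes were read one by one. Irf8, a factor of myeloid cells, rose by 1.29 and 1.62. Irf9, a subunit of the factor that binds the ISRE, rose by 1.08 in young mice and had a ratio of 0.94 in adult mice. Irf1, an interferon-inducible transcription factor, was at 11.2, 21.7, 13.0 and 18.2 FPKM in the order given for Psmb5, with ratios of 0.89 and 0.46. The subunits of the DNA binding complex through which Nlrc5 acts included Rfxap, with ratios of −0.39 (young) and 0.41 (adult), and Rfxank, with −0.36 at each age. Ciita, the class II counterpart of Nlrc5, was at 0.22, 0.56, 0.13 and 0.74 FPKM.

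Ifng, which encodes IFN-γ, was listed at 0 in young sham, young injured and adult sham cartilage and at 0.03 FPKM in adult injured cartilage. Its receptor chains were expressed in all libraries, Ifngr1 at 24.2, 36.5, 23.9 and 36.6 FPKM and Ifngr2 at 14.4, 18.4, 7.30 and 18.7 FPKM. Of the 6 genes of IFN-γ, its receptor and its kinases, 1 was called after injury, Ifngr2 in adult mice (1.25), and none after median-of-ratios scaling, where its ratio was 0.95. Jak2 had ratios of −0.15 and 0.66 and Jak1 of 0.39 and 0.42.

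Markers of other cell types moved with injury in the same libraries. Of 13 macrophage genes, 12 were called higher with injury at each age, and their summed levels were 206.6, 2114.5, 314.7 and 1787.4 FPKM in the order given above. Only Cd163, at 0.41 to 0.88 FPKM, was not called. All 6 endothelial genes were called higher at both ages (5 of 6 in adult mice after median-of-ratios scaling), with sums of 15.8, 78.0, 17.7 and 64.9 FPKM. Of 9 neutrophil genes 3 were called higher at the young age (2 after that scaling) and 1 at the adult age, and of 6 dendritic cell genes Itgax was called at each age. The 10 T and NK cell genes found in the table summed to 1.5, 3.6, 1.5 and 7.6 FPKM, with Cd3e at 0 in adult sham, Cd3g at 0 in young sham, Gzmb at 0 in both sham libraries, and Nkg7 called in adult mice (1.48). The 5 receptors by which lymphoid cells read class I, such as Cd8a and Klrd1, stayed below 1 FPKM in all libraries. The 5 B cell genes found summed to 56.5, 82.2, 11.6 and 19.6 FPKM. Of 6 bone genes, Col1a1 was called higher after injury at both ages (1.60 and 1.73) and Dmp1 at the young age (1.08). Of the 8 cartilage genes, Prg4 was called lower in young mice (−2.28), and Acan (1.38) and Col9a1 (1.95) were called higher in adult mice. In adult against young sham cartilage, 4 of 13 macrophage genes were called higher, as were 4 of 6 bone genes and 4 of 7 muscle genes, and all 5 B cell genes were called lower. In adult mice 5 of the 7 muscle genes and 3 of 6 red cell genes were called lower after injury, against 1 and 0 in young mice, and after median-of-ratios scaling all 7 muscle genes were called lower in adult mice. Between the injured libraries 4 of 6 bone genes were called lower in young mice, and all 5 B cell and all 6 red cell genes higher. These counts were the same after median-of-ratios scaling. Of the 8 cartilage genes 4 were called higher (3 after that scaling) and 2 lower in young injured cartilage. Of all genes 3.09% were called higher and 1.8% lower there. The part of these cell types in the levels of the 10 genes was not tested.

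The summed level of the 10 genes was 362.2, 884.0, 627.9 and 1005.8 FPKM in that order. This was 2.44-fold higher after injury at the young age and 1.60-fold higher at the adult age, beside 10.2-fold and 5.68-fold for the macrophage sum. The largest single part of the first sum was B2m, with 219.0, 485.0, 272.2 and 464.6 FPKM. In the macrophage sum it was Lyz2, with 141.5, 1270.5, 183.2 and 1089.95 FPKM, so both folds depend much on 1 gene. Out of 8046 other genes that averaged 5 FPKM or more, the 5 whose log2 profile over the 4 libraries was nearest to the mean profile of the 10 genes were Syngr2, Timp3, Tcirg1, Sh3bp2 and Kcnn4. Their Euclidean distances were 0.11 to 0.15, where the 10 genes themselves lay at 0.30 to 0.85 from their own mean. Timp3, an inhibitor of matrix proteases, was at 90.0, 216.7, 154.6 and 265.5 FPKM, and Tcirg1, a proton pump subunit of osteoclasts, at 21.7, 56.6, 34.9 and 65.0 FPKM. With 4 libraries such a likeness describes similar differences between these libraries and no more.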

How the data were processed

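The study sequenced poly-A RNA as paired-end reads from a kit that keeps the strand. The authors deposited FPKM per gene on mm10, with 1 column for each of the 4 libraries. The submitters' processing notes name HISAT2 2.1.0, StringTie 1.3.4d, STAR and SAMtools without their roles, and whether counting used strand is not given in the sources used here. FPKM depend on the mapped total and on a transcript length, so a few abundant genes can shift all other values of a library.

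All 24532 genes were read, and each column was matched to its sample by the sample description. Log2 ratios of FPKM + 1 were formed for 4 comparisons over 18181 genes above 0 in 1 or more libraries and called at 2-fold. With 1 library per group no test was made. The genes, the related lists, the markers and the naming rule were chosen with earlier results of these data known. The rule named all 10 genes, fixed partners (of which 1 is not reported here), the list members with the largest and smallest injury ratio among those with a mean of at least 1 FPKM, and the 5 genes nearest in profile; all further named genes were picked with their values in view. Alternatives were pseudocounts of 0.1 and 5 FPKM, a filter of 1 FPKM in 1 or more libraries, TPM, median-of-ratios and quantile scaling, and thresholds of 1.5-fold and 3-fold. Leaving out genes with near-identical copies (50% or more of 31-base words, GENCODE M21 transcripts) was also planned. Python 3.11.15, numpy 2.4.6, pandas 2.3.3 and matplotlib 3.10.9 were used.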

Additional observations from a re-analysis of the deposited data

Results flagged for a closer look

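Of the genes named above, 10 outside the 10 had injury log2 ratios of opposite sign in young and adult mice, each from 1 library per group, and the difference was not tested. The young minus adult difference was −0.77 for Canx, −0.48 for Col2a1, −2.43 for Col9a1, −0.58 for H2-T22, −0.81 for Jak2, −0.62 for Mr1, −0.80 for Rfxap, 0.60 for Psmb3, 0.27 for Psmb6 and 0.0689 for Tapbpl. The adult ratios of Canx and Col2a1 turned negative after median-of-ratios scaling (−0.12 and −0.10), which gives them the same sign at both ages.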

How the results depend on the processing

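The young injury count of 6 stayed within 1.5 times under every alternative run. The median injury ratio stayed above 0 at both ages with each scaling, whereas the median between the injured libraries, 0.02 as deposited, was −0.15 on the TPM scale, −0.09 after median-of-ratios scaling and −0.04 after quantile normalization. The adult injury count of 2 was 4 with a pseudocount of 0.1 FPKM, 1 with 5 FPKM, 5 on the TPM scale, 1 after median-of-ratios scaling, 1 after quantile normalization, 6 at 1.5-fold and 0 at 3-fold. The adult against young sham count of 2 was 6 after median-of-ratios scaling, 6 after quantile normalization, 6 at 1.5-fold and 1 at 3-fold. In the injured libraries the count of genes lower in young mice was 0, and it was 1 on the TPM scale and 2 at 1.5-fold. The small ratios between the injured libraries changed sign for 6 genes on the TPM scale, 5 after median-of-ratios scaling and 3 after quantile normalization. Tap2 in adult injury and Tap1 between the sham libraries changed sign under the latter scalings. For 5 single gene values, all with another pseudocount, the fold itself shifted by more than 1.5 times, namely for Nlrc5 and for Psmb9, which had a log2 ratio of 1.12 in young mice with 5 FPKM. Scaling shifted log2 ratios by less than that, although small ones moved far in proportion, such as H2-D1 in adult injury from 0.35 to 0.02 after median-of-ratios scaling. None of the 10 genes reached 50% of shared words, so leaving out such genes removed none of the 10. The related lists were not recomputed without their own near-identical genes, and Psmb8/Psmb5 could not be given without Psmb5. No paired analysis was possible because each group has 1 library. FPKM without fragment counts and without replicates allow no error for single values.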
